A study of Mus musculus with 6 samples.

Results

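The genes described here are the matrix metalloproteinases (MMPs), their tissue inhibitors (TIMPs) and the ADAMTS proteases, in subcutaneous mouse pancreatic tumours. They were chosen by name: every gene in the deposited table whose symbol is Mmp, Timp or Adamts followed by a number and at most a single letter, which gave 46 of 55357 genes (23 MMPs, 4 TIMPs and 19 ADAMTS genes), with 0 repeated symbols. KPC1242 is a cell line of mouse pancreatic ductal adenocarcinoma, and 250000 of its cells were placed under the skin of C57BL/6J mice. In 1 group the mice were gavaged with 2 mg folinic acid (FA), a reduced folate, each day from day 8 to day 12 after inoculation; the control group was gavaged with phosphate-buffered saline (PBS) on the same days, and every tumour was collected on day 14. There were 3 FA and 3 PBS tumours, each measured by stranded total RNA sequencing, and the values are TPM, a transcript level per length scaled to the same total in each tumour.

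Both groups carry the same transplanted line, placed under the skin and not in the pancreas. The labels do not state which animal each tumour came from, so the p-values measure the spread between these 6 tumours, which may be partly technical. The sample names share a prefix within FA and another within PBS, and what it marks cannot be told apart from treatment. FA replicate 3 stood apart from the other tumours: across genes its Pearson correlation with each of them in log2(TPM + 1) was between 0.949 and 0.968, while every other tumour had a partner at 0.986 or 0.987; genes are not independent replicates. The log2 differences of all members tested are therefore also given without this tumour. TPM keeps no read depth, so no counting interval is given. Markers of the labelled tumour cells were abundant: the summed TPM of 6 ductal epithelial keratin and adhesion genes lay between 5000.5 and 5612 TPM with FA and between 4603 and 5304 TPM with PBS.

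MMPs are zinc-dependent enzymes that cut collagens, gelatin, elastin, laminins and many non-matrix proteins. They are made as inactive proenzymes whose propeptide must be removed, and TIMPs block the active site of the mature enzymes. ADAMTS proteases are related secreted enzymes with thrombospondin repeats; they cut proteoglycans such as versican and aggrecan, trim procollagens, or process von Willebrand factor. Pancreatic adenocarcinoma is known for its dense collagenous stroma, and in such tumours fibroblasts, macrophages, neutrophils and the cancer cells can all make these enzymes.

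The tumours held high levels of the membrane-anchored collagenase Mmp14 and the inhibitors Timp1 and Timp2, intermediate levels of Mmp2, Mmp3, Mmp13, Mmp12, Mmp9 and Adamts1, while 20 members averaged under 1 TPM. The minimum for the test, 1 TPM on average, was reached by 26 members (12 MMPs, 3 TIMPs and 11 ADAMTS genes), and 20 reached 10 TPM. No tested member differed between FA and PBS tumours beyond the spread between tumours. In a limma model of log2(TPM + 1) fitted to 15023 genes, 0 of the 26 members tested were higher and 0 were lower in FA at a Benjamini-Hochberg adjusted p under 0.05, against 0% of all genes tested in either direction, and each had an adjusted p of 1.0. At an unadjusted p under 0.05 there were again 0 of 26, where 1.28% of all genes passed. The smallest unadjusted p among the members was 0.196, for Adamts4. The 95% intervals of the log2 differences were wide, with a median width of 1.24 against 0.645 over all genes tested. In every member tested the FA and PBS values overlapped, while groups did not overlap for 2.48% of all genes in the higher and 2.22% in the lower direction. In whole-tumour RNA, fewer cells of a type and less RNA per cell cannot be told apart.

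**Figure D1:**
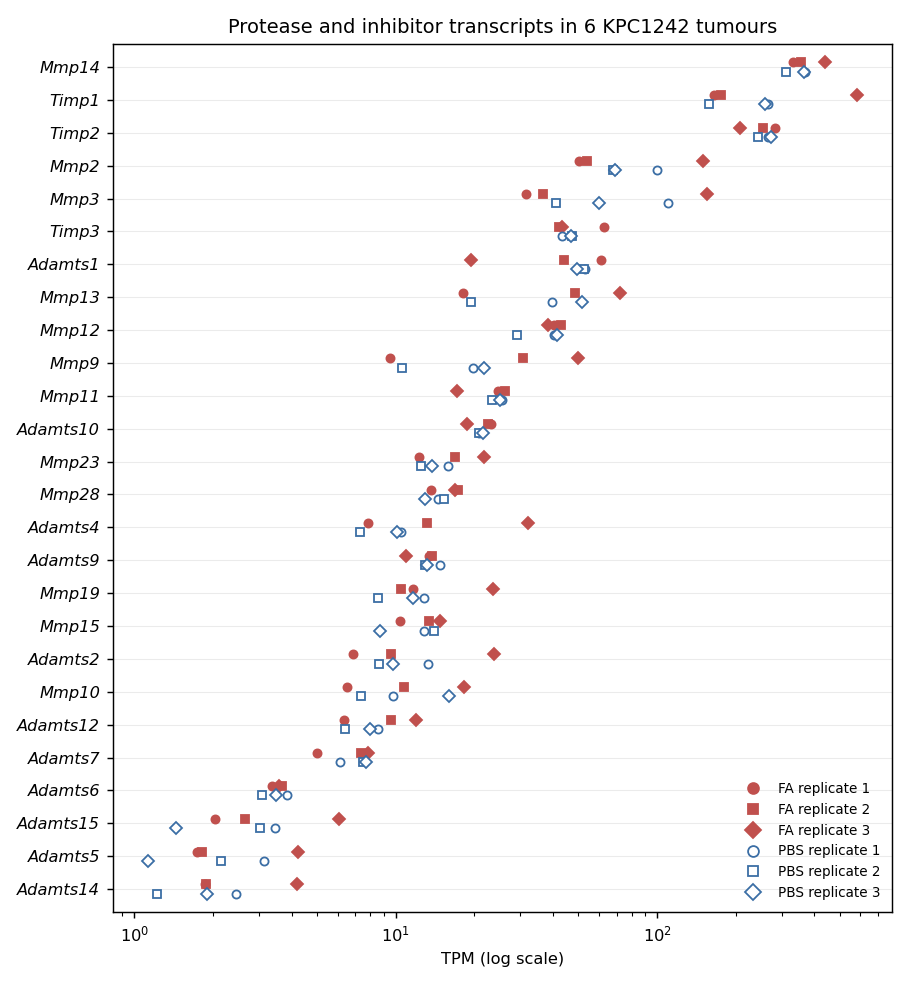
TPM on a log scale for the 26 members tested, in order of mean, with 3 FA tumours as filled symbols and 3 PBS tumours as open symbols. Mmp14, Timp1 and Timp2 are the 3 members with a mean above 100 TPM, and FA replicate 3 (filled diamond) lies to the right of the other tumours for most members and to the left for Adamts1.

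The membrane-type MMPs stay attached to the cell surface. Mmp14 (ENSMUSG00000000957, chr14:54431612-54445364 in GRCm38 by GENCODE M21), which encodes the enzyme that cleaves fibrillar collagen at the cell surface and activates pro-MMP2, was the most abundant member. It stood at 329.7, 354 and 441 TPM in FA replicates 1 to 3 and at 369, 312 and 365 TPM in PBS replicates 1 to 3. The highest tumour was 1.41 times the lowest and the groups overlapped. The log2 difference was 0.10 ± 0.12 (standard error), with a 95% interval from -0.20 to 0.40. Mmp15, another membrane-type enzyme, was at 10.4, 13.4 and 14.8 TPM with FA and 12.8, 14.0 and 8.72 TPM with PBS, with a log2 difference of 0.12 ± 0.20. PBS replicate 3 was lowest for Mmp15 and FA replicate 3 highest.

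The remaining membrane-type genes were scarce. Mmp25, known from neutrophils, was at 0.83, 0.68 and 1.23 TPM in FA replicates 1 to 3 and at 0.63, 0.44 and 0.62 TPM in PBS replicates 1 to 3. These FA values lay above all PBS values, the only member for which the groups did not overlap, but its mean of 0.738 TPM kept it out of the test. With no minimum its log2 difference was 0.28 ± 0.14, with an unadjusted p of 0.0869 and an adjusted p of 0.986 by limma. Mmp16 ranged from 0.14 to 0.74 TPM, Mmp17 from 0.11 to 0.83 TPM and Mmp24 from 0.11 to 0.30 TPM, with FA replicate 3 lowest for Mmp16 and highest for Mmp17 and Mmp24.

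The gelatinases cut denatured collagen and basement membrane collagen. Mmp2 (ENSMUSG00000031740, chr8:92827291-92853420), which fibroblasts are known to make, stood at 50.2, 53.9 and 149 TPM in FA replicates 1 to 3 and at 100.3, 67.9 and 69.2 TPM in PBS replicates 1 to 3. FA replicate 3 was the highest of the 6 tumours, and the other FA tumours were the lowest. The FA mean was 84.5 ± 56.2 TPM and the PBS mean 79.1 ± 18.4 TPM (SD, n = 3 each), and the log2 difference of -0.07 ± 0.42 had an interval from -1.07 to 0.93. Mmp9 (ENSMUSG00000017737, chr2:164940780-164955850), a gelatinase known from neutrophils and macrophages, stood at 9.47, 30.6 and 49.8 TPM in FA replicates 1 to 3 and at 19.8, 10.5 and 21.8 TPM in PBS replicates 1 to 3. Its highest tumour was 5.25 times its lowest, the widest range of any member tested, and the log2 difference was 0.54 ± 0.58. FA replicate 1 and PBS replicate 2 were the low tumours, and the groups overlapped.

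Collagenases, stromelysins, the metalloelastase and a matrilysin are encoded side by side on chromosome 9, where 10 of the 23 MMP genes lie within 427 kb (chr9:7272514-7699585 in GRCm38.p6, RefSeq). Neighbours in this cluster differed greatly in level. In order along the chromosome the mean levels were 41.6 TPM for Mmp13, 38.8 for Mmp12, 0.05 for Mmp1b, 72.3 for Mmp3, 0.01 for Mmp1a, 11.4 for Mmp10, 0.29 for Mmp8, 0.79 for Mmp27, 0.002 for Mmp20 and 0.20 for Mmp7. So 4 genes of the cluster were above 10 TPM and 6 were under 1 TPM.

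The upstream windows of this cluster share a short motif, shown here because the AP-1 factors that bind it, dimers of Fos and Jun proteins, are known inducers of collagenase and stromelysin genes. The search used the AP-1 letters TGANTCA on both strands and the TATA box letters TATAAA on the gene's strand, in the 100 bases before each RefSeq start in GRCm38.p6. The 2 motifs do not share a position in these windows. Capitals mark the matches in the lines that follow, AP-1 first and TATA second, and Mmp12 has the AP-1 match only. The first 4 are the genes of the cluster above 10 TPM, and the last pair averaged under 1 TPM.
Mmp13 (chr9:7272414-7272513, plus strand): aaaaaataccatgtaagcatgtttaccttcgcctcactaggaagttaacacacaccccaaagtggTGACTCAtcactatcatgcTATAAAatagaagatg
Mmp12 (chr9:7347274-7347373, plus strand): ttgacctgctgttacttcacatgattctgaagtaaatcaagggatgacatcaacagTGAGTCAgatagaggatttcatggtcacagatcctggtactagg
Mmp3 (chr9:7445722-7445821, plus strand): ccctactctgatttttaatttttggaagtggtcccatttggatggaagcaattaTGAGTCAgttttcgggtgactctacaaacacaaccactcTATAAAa
Mmp10 (chr9:7502242-7502341, plus strand): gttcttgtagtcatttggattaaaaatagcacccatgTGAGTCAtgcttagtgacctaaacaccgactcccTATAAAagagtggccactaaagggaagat
Mmp1a (chr9:7464041-7464140, plus strand): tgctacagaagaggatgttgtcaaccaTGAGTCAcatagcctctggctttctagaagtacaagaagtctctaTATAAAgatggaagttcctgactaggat
Mmp7 (chr9:7691990-7692089, plus strand): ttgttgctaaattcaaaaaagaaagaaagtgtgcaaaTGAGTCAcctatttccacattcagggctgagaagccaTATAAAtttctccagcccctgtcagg

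The AP-1 letters were in at least 1 window of 8 of the 10 cluster genes, against 2.73% of 32841 RefSeq windows of the same length. Of the 8, 7 also held the TATA letters, against 0.17% of all windows for both motifs together. The cluster counts are per gene and the shares are per window, so they are not strictly alike. The cluster genes are all MMPs, and the windows of Mmp1a and Mmp1b are close to copies, so these genes are not independent cases. Mmp12 and Mmp7 have a pair of annotated starts each, and only the window of the start given above, which for Mmp12 lies inside the gene, held the AP-1 letters. The match read TGAGTCA or TGACTCA in 7 genes and TGAATCA in Mmp20. Of the 22 other members with a RefSeq window, Mmp14, Timp1 and Timp2 among them, 0 held the letters within 100 bases. The 14 members without a window, which include Mmp2, Mmp9 and Adamts4, were not searched. A match is a description of the letters and not evidence of a bound factor. The cluster genes with the motif were Mmp13, Mmp12, Mmp3 and Mmp10, above 10 TPM, and Mmp1b, Mmp1a, Mmp20 and Mmp7, under 1 TPM. Mmp8 and Mmp27, the cluster genes without it, were under 1 TPM.

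**Figure D2:**
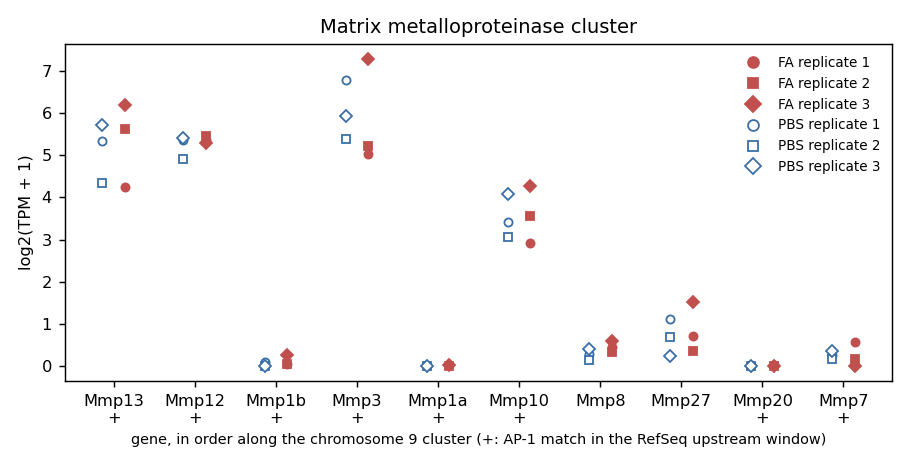
log2(TPM + 1) in each tumour for the 10 MMP genes of the chromosome 9 cluster, in their order along the chromosome, with a plus sign under the 8 genes whose 100-base upstream window holds the AP-1 letters. Mmp13, Mmp12, Mmp3 and Mmp10 stand above 10 TPM on average and the other 6 genes under 1 TPM, with plus signs in both sets.

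Among the stromelysins, which cut proteoglycans, laminin and fibronectin and can activate procollagenases, Mmp3 (ENSMUSG00000043613) was the most abundant. It stood at 31.5, 36.5 and 155 TPM in FA replicates 1 to 3 and at 109.9, 41.2 and 59.9 TPM in PBS replicates 1 to 3. FA replicate 3 and PBS replicate 1 were high and FA replicates 1 and 2 were the lowest. The log2 difference was -0.20 ± 0.64, with an interval from -1.74 to 1.34 that is the widest of all members tested. Mmp10, also called stromelysin 2, was at 6.50, 10.7 and 18.2 TPM with FA and 9.77, 7.39 and 15.9 TPM with PBS. PBS replicate 3 and FA replicate 3 were the highest for Mmp10, and the log2 difference was 0.05 ± 0.39.

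Mmp11, also called stromelysin 3 and encoded on chromosome 10 apart from the cluster, was at 24.5, 26.3 and 17.2 TPM with FA and 25.5, 23.3 and 25.1 TPM with PBS. Here FA replicate 3 was the lowest tumour, and the other 5 lay between 23.3 and 26.3 TPM. The log2 difference was -0.13 ± 0.16.

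The main collagenase was Mmp13 (ENSMUSG00000050578), which cleaves fibrillar collagens and is the chief interstitial collagenase of rodents. It stood at 18.2, 48.7 and 71.9 TPM in FA replicates 1 to 3 and at 39.7, 19.5 and 51.5 TPM in PBS replicates 1 to 3. FA replicate 1 and PBS replicate 2 were low together and FA replicate 3 was high, and the log2 difference was 0.22 ± 0.55. The neutrophil collagenase Mmp8 ranged from 0.10 to 0.51 TPM. Mmp1a was at 0.02 TPM in FA replicates 1 and 3 and listed at 0 in the other 4 tumours. Mmp1b was at 0.03, 0.03 and 0.20 TPM with FA and 0.06, 0 and 0 TPM with PBS.

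The metalloelastase Mmp12, a product of macrophages that cuts elastin, had the narrowest range of the 4 tested genes of the cluster. It stood at 40.5, 43.0 and 38.4 TPM in FA replicates 1 to 3 and at 40.5, 29.0 and 41.3 TPM in PBS replicates 1 to 3. PBS replicate 2 was the lowest and the other 5 tumours lay between 38.4 and 43.0 TPM, with a log2 difference of 0.15 ± 0.14. The matrilysin Mmp7, an epithelial MMP of pancreatic duct lesions, ranged from 0 to 0.47 TPM and was listed at 0 in FA replicate 3. The enamel enzyme Mmp20 was at 0.01 TPM in FA replicate 1 and listed at 0 in the other 5 tumours, and Mmp27 ranged from 0.18 to 1.88 TPM.

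The other MMPs are encoded elsewhere in the genome. Mmp23 was at 12.3, 16.8 and 21.8 TPM with FA and 15.9, 12.5 and 13.8 TPM with PBS. Mmp28, also called epilysin, was at 13.6, 17.3 and 16.9 TPM with FA and 14.5, 15.2 and 13.0 TPM with PBS. Both had their lowest or second-lowest value in FA replicate 1, and the log2 differences were 0.23 ± 0.21 and 0.15 ± 0.12. Mmp19, an MMP of stroma and blood vessels, was at 11.7, 10.5 and 23.6 TPM with FA and 12.9, 8.59 and 11.7 TPM with PBS. Its FA replicate 3 value was 1.84 times the next tumour, while the other 5 lay between 8.59 and 12.9 TPM. Mmp21 did not exceed 0.05 TPM in any tumour.

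Of the inhibitors, Timp1 and Timp2 were both above 150 TPM in each tumour. Timp1 (ENSMUSG00000001131, chrX:20870166-20874735), an inducible inhibitor of most secreted MMPs, stood at 165, 176 and 582 TPM in FA replicates 1 to 3 and at 265, 158 and 258 TPM in PBS replicates 1 to 3. FA replicate 3 was 2.20 times the next tumour, and the other FA tumours lay within the PBS range. The log2 difference was 0.21 ± 0.50, with an interval from -0.97 to 1.40. Timp2 (ENSMUSG00000017466, chr11:118301069-118355740), which both inhibits MMPs and links pro-MMP2 to MMP14 for activation, stood at 284, 254 and 208 TPM in FA replicates 1 to 3 and at 265.7, 243 and 274 TPM in PBS replicates 1 to 3. Here FA replicate 3 was the lowest tumour, and the log2 difference was -0.08 ± 0.12, with an interval from -0.36 to 0.20.

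Timp3, an inhibitor that binds the matrix and also blocks ADAM and ADAMTS enzymes, was at 62.8, 42.1 and 43.2 TPM with FA and 43.2, 47.3 and 46.7 TPM with PBS. FA replicate 1 was high and the other 5 tumours lay between 42.1 and 47.3 TPM. Timp4 was at 0.03, 0.03 and 0.18 TPM with FA and 0.02, 0.03 and 0 TPM with PBS, close to 0 except in FA replicate 3. The ratio of Timp1 to Timp2 was 0.583, 0.693 and 2.80 with FA and 0.996, 0.651 and 0.943 with PBS. Timp2 thus exceeded Timp1 in 5 tumours and Timp1 exceeded Timp2 in FA replicate 3.

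Summed over each family, MMPs made up 562, 664 and 1023 TPM with FA and 775, 563 and 699 TPM with PBS. TIMPs summed to 512, 472 and 833 TPM and 574, 449 and 579 TPM in the same order. Mmp14 alone held between 43.1% and 58.7% of the MMP sum, with the lowest share in FA replicate 3. The ratio of the MMP to the TIMP sum was 1.10, 1.41 and 1.23 with FA and 1.35, 1.25 and 1.21 with PBS, a mean of 1.24 ± 0.155 against 1.27 ± 0.0732 (SD, n = 3 each). The FA tumours held both the lowest and the highest ratio, and FA replicate 3, with the highest sum of either family, had a ratio inside the PBS range. This is a ratio of transcripts and carries no information on enzyme activity.

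**Figure D3:**
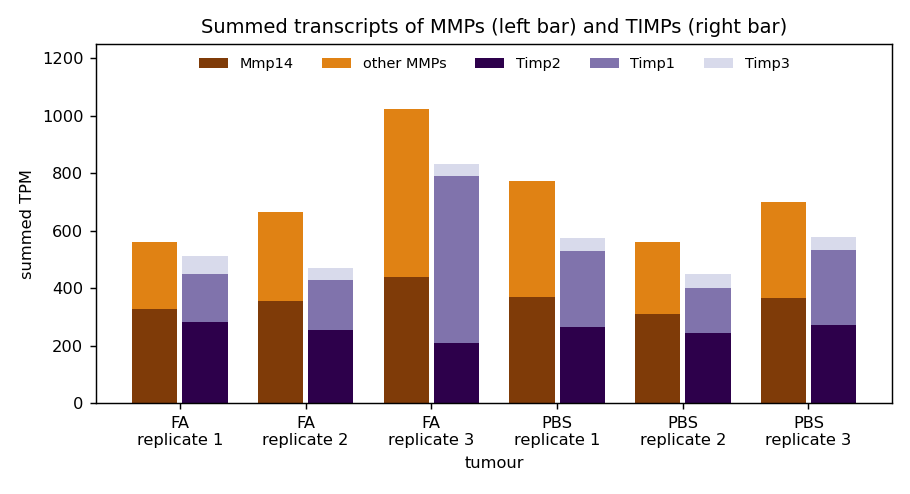
Summed TPM of the MMPs (left bar of each tumour, split into Mmp14 and the other MMPs) and of Timp1, Timp2 and Timp3 (right bar). FA replicate 3 has the tallest bars of both families, at 1023 TPM for the MMPs, with the tallest segments of Timp1, Mmp14 and the other MMPs, while its Timp2 segment is the shortest of the 6 tumours.

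The ADAMTS genes summed to 134, 131 and 146 TPM with FA and 142, 127 and 129 TPM with PBS, a narrower range than that of the MMPs. The proteoglycanases, which cut versican and aggrecan, held the larger share of this sum. Adamts1 (ENSMUSG00000022893, chr16:85793827-85803113) stood at 60.9, 43.9 and 19.5 TPM in FA replicates 1 to 3 and at 53.2, 52.6 and 49.2 TPM in PBS replicates 1 to 3. FA replicate 3 was less than 0.5 of any other tumour, FA replicate 1 was the highest, and the log2 difference of -0.45 ± 0.37 had an interval from -1.35 to 0.44. Adamts4 (ENSMUSG00000006403, chr1:171250421-171260637), an inflammation-induced aggrecanase, stood at 7.81, 13.2 and 32.2 TPM in FA replicates 1 to 3 and at 10.5, 7.33 and 10.1 TPM in PBS replicates 1 to 3. It had the largest log2 difference of the members tested, 0.66 ± 0.46, and FA replicate 3 was 2.44 times the next tumour. FA replicate 3 was thus the lowest tumour for Adamts1 and the highest for Adamts4.

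Adamts9, which cleaves versican, was at 13.4, 13.8 and 10.9 TPM with FA and 14.8, 13.0 and 13.2 TPM with PBS, with FA replicate 3 again the lowest. Adamts5, the other main aggrecanase and the nearest member to Adamts1 on chromosome 16, was at 2.59 ± 1.41 TPM with FA and 2.13 ± 1.00 TPM with PBS. Adamts15 was at 3.58 ± 2.18 TPM with FA and 2.65 ± 1.06 TPM with PBS. In contrast to Adamts1, both Adamts5 and Adamts15 were highest in FA replicate 3, and both were lowest in PBS replicate 3. Adamts8, the neighbour of Adamts15 on chromosome 9, ranged from 0.06 to 0.35 TPM, and Adamts20 was at 0.03, 0.03 and 0.18 TPM with FA and 0.03, 0.04 and 0.04 TPM with PBS.

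The procollagen N-proteinases remove the amino-terminal propeptide of fibrillar procollagens. Adamts2 was at 6.89, 9.58 and 23.8 TPM with FA and 13.3, 8.63 and 9.75 TPM with PBS, with FA replicate 3 highest and a log2 difference of 0.16 ± 0.42. Adamts14 was at 2.65 ± 1.35 TPM with FA and 1.86 ± 0.621 TPM with PBS, also with FA replicate 3 highest, and Adamts3 ranged from 0.10 to 0.40 TPM. Adamts7 and Adamts12 bind cartilage oligomeric matrix protein. Adamts7 was at 6.74 ± 1.53 TPM with FA and 7.11 ± 0.851 TPM with PBS, with a difference of -0.08 ± 0.18. Adamts12 was at 9.29 ± 2.81 TPM with FA and 7.64 ± 1.12 TPM with PBS, with a difference of 0.22 ± 0.22.

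Adamts10, which is linked to fibrillin microfibrils, was at 23.2, 22.6 and 18.7 TPM with FA and 20.8, 20.9 and 21.5 TPM with PBS. Its highest tumour was 1.24 times its lowest, and its interval ran from -0.22 to 0.27. Adamts6 was at 3.54 ± 0.159 TPM with FA and 3.46 ± 0.375 TPM with PBS, with a difference of 0.03 ± 0.13. Its highest tumour was also 1.24 times its lowest, and Adamts10 and Adamts6 had the smallest such ratios of the members tested. The SD of log2(TPM + 1) within groups was 0.093 for Adamts6 and 0.117 for Adamts10. Adamts16 ranged from 0.18 to 1.42 TPM and Adamts17 from 0.32 to 0.79 TPM. Adamts13, the protease of von Willebrand factor, did not exceed 0.08 TPM, Adamts18 did not exceed 0.14 TPM and Adamts19 did not exceed 0.05 TPM.

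**Figure D4:**
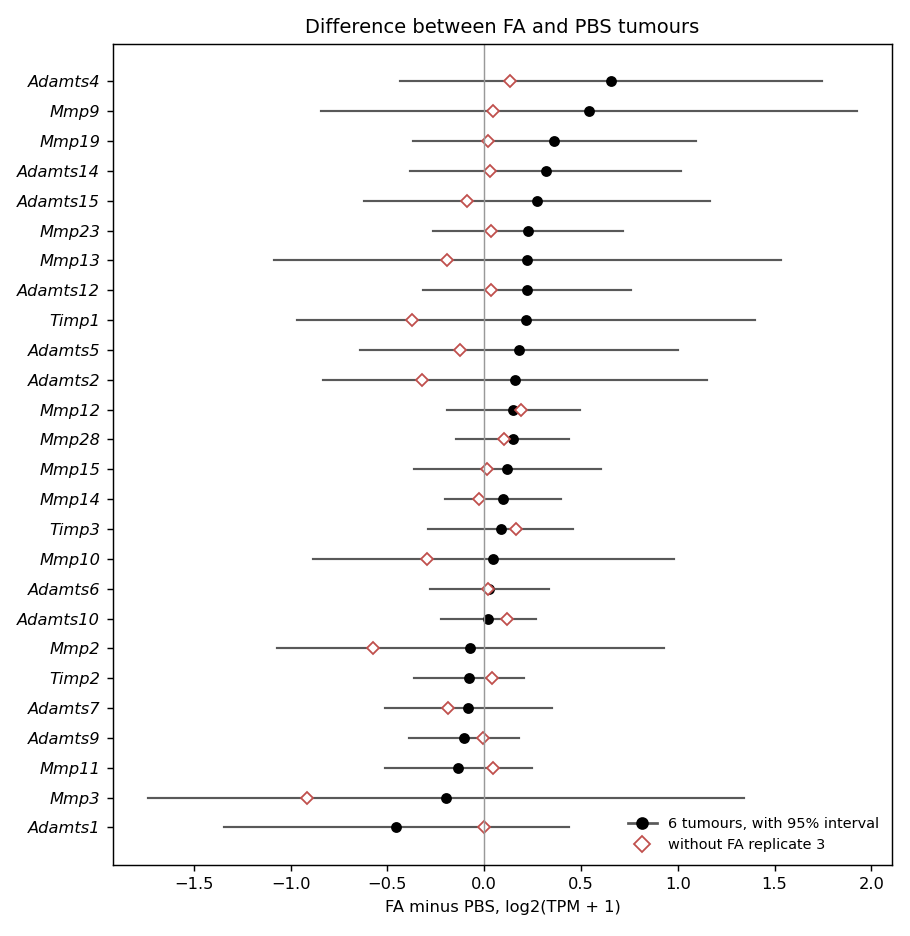
FA minus PBS difference of log2(TPM + 1) for the 26 members tested, with black points and 95% intervals from the 6 tumours and open diamonds for the fit without FA replicate 3. Every interval crosses 0, and the diamonds of Adamts4, Mmp9, Timp1, Mmp2, Mmp3 and Adamts1 lie far from their black points.

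More members had a higher than a lower mean log2(TPM + 1) with FA, and the size of these differences depended on FA replicate 3. The difference was above 0 for 19 of 26 members, against 50.7% of all genes. The median difference was 0.13 against 0.0016 over all genes tested. Mmp2 and Mmp3 were below 0 on this scale, although their mean TPM was higher with FA. Without FA replicate 3, 15 of 26 (57.7%) were above 0, against 55.3% of all genes, and the median was 0.019 against 0.013. The sign turned for 10 members without this tumour, among them Mmp14 (-0.025), Timp1 (-0.37), Mmp13 (-0.19), Mmp10 (-0.30), Adamts2 (-0.32) and Timp2 (0.042). Of the other members whose sign turned, Mmp11 was at 0.044, Adamts5 at -0.12, Adamts15 at -0.089 and Adamts1 at 0.001. The differences shrank to 0.13 for Adamts4, 0.048 for Mmp9, 0.038 for both Mmp23 and Adamts12, 0.031 for Adamts14, 0.020 for Mmp19, 0.017 for Mmp15 and -0.0056 for Adamts9. They were further from 0 for Timp3 (0.17), Adamts10 (0.12) and Adamts7 (-0.19), and moved by less than 1.5 times for Mmp12 (0.19), Mmp28 (0.10) and Adamts6 (0.020).

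Mmp2 and Mmp3 took the most negative values without FA replicate 3. The log2 difference of Mmp2 was then -0.57 ± 0.17, with an unadjusted p of 0.0164 and an adjusted p of 1.0 by limma, and that of Mmp3 was -0.91 ± 0.38, with an unadjusted p of 0.0508. Mmp2 was the only member with an unadjusted p under 0.05 in that fit, where 2.9% of all genes passed, and 0 members passed at an adjusted p under 0.05, where 0.00666% of all genes did. Leaving out other single tumours also turned signs, so that only 8 of 26 members kept 1 sign in all 6 such fits: Adamts4, Adamts9, Adamts12, Adamts14, Mmp9, Mmp19, Mmp23 and Mmp28.

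The members varied between tumours more than most genes did. Their median SD of log2(TPM + 1) within groups was 0.37, against 0.16 for all genes tested, and without FA replicate 3 it was 0.25 against 0.11. The highest tumour was at least 2 times the lowest on the TPM + 1 scale for 13 of 26 members, or 50.0%, against 12.9% of all genes. Without FA replicate 3 this held for 4 of 26 members, or 15.4%, against 5.2% of all genes; these values without the tumour were added after seeing the data. FA replicate 3 was the highest tumour for 17 of 26 members (65.4%), against 29.4% of all genes, and the lowest for 5 (19.2%), namely Adamts1, Timp2, Mmp11, Adamts9 and Adamts10, against 37.5% of all genes. FA replicate 1 and PBS replicate 2 formed the lowest pair for 11 of 26 members, against 9.8% of all genes, a pattern chosen after the values were seen. It held for Mmp9, Mmp13, Mmp10, Mmp14, Timp1 and Adamts4, among others.

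Markers of several cell types were also highest in FA replicate 3. FA replicate 3 was the highest tumour for 9 of 9 fibroblast, 6 of 6 endothelial, 7 of 7 macrophage and 7 of 7 skeletal muscle markers, and for each of the 3 neutrophil markers above 1 TPM. Markers of the tumour epithelium summed to 5612 TPM in FA replicate 3, also the highest, against 4603 to 5304 TPM in the other tumours. Of these 6 markers, 3 were highest in FA replicate 3, while Cdh1 was lowest there, at 252.9 TPM. The summed fibroblast markers were 2024, 2525 and 6805 TPM with FA and 3693, 1962 and 2604 TPM with PBS. Their order over the 6 tumours was that of Mmp14, Timp1 and Adamts14, a match picked after the values were seen. Mmp2 and Mmp3 had another order, with FA replicates 1 and 2 the lowest. The share of all genes with either order was not computed. Macrophage markers summed to between 442 and 836 TPM with FA and between 423 and 534 TPM with PBS. Neutrophil markers summed to between 16.1 and 40.3 TPM with FA and between 16.4 and 17.5 TPM with PBS. Endothelial markers summed to between 52.7 and 208 TPM with FA and between 56.2 and 93.6 TPM with PBS, and FA replicate 3 was the highest in each of these lists. Skeletal muscle markers summed to between 12.7 and 1114 TPM with FA and between 14.4 and 161 TPM with PBS, with FA replicate 1 and PBS replicate 2 the lowest. Adipocyte markers summed to between 12.4 and 194 TPM with FA and between 25.4 and 61.5 TPM with PBS, and none of 6 T and NK lymphocyte markers reached 1 TPM on average. Keratinocyte markers summed to between 10.0 and 14.0 TPM with FA and between 9.82 and 10.2 TPM with PBS, with Krt5 at 0 in all 6 tumours. The neutrophil genes Ly6g and Ngp were at 0 in 5 of 6 tumours, and S100a9, the highest of the 7, reached 15.4 TPM. The part of these cells in the levels of the members was not tested.

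**Figure D5:**
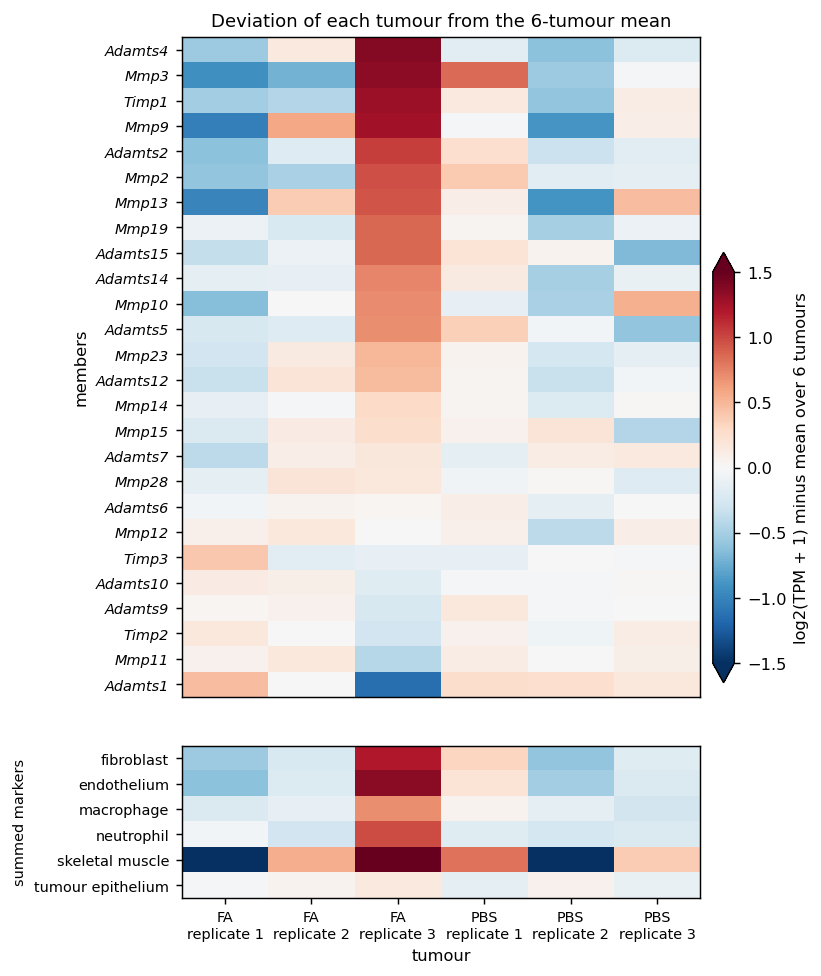
Log2(TPM + 1) of each tumour minus the mean of the 6 tumours, for the 26 members tested (upper panel, ordered by FA replicate 3) and for the summed markers of 6 cell types (lower panel), with colours saturating at 1.5. FA replicate 3 is high for most members and for fibroblast, endothelial, macrophage, neutrophil and muscle markers, and low for Adamts1, Mmp11 and Timp2, while FA replicate 1 and PBS replicate 2 are low for Mmp9 and Mmp13.

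Genes that act with these enzymes were read from the same fit. Of 12 tested regulators outside the families, 0 were called in either direction and 10 had a log2 difference above 0. Their median log2 difference was 0.21, or -0.0087 without FA replicate 3. The serpin Serpinb5 (maspin) was at 19.5 ± 7.26 TPM with FA and 12.1 ± 2.53 TPM with PBS, with a difference of 0.61 ± 0.27 and an unadjusted p of 0.0588, and a difference of 0.34 without FA replicate 3. The proprotein convertases Furin and Pcsk6, which can activate membrane-type MMPs and ADAMTS enzymes, were measured too. Furin was at 80.0 ± 10.1 TPM with FA and 70.7 ± 4.49 TPM with PBS. Pcsk6 was at 15.4 ± 2.73 TPM with FA and 12.5 ± 1.96 TPM with PBS. Of 9 ADAM proteases, the membrane-anchored relatives that shed cell surface proteins, 0 were called and the median was 0.098, or 0.0018 without FA replicate 3. Adam10 was at 71.6 ± 7.92 TPM with FA and 75.4 ± 1.90 TPM with PBS, Adam17 at 37.6 ± 1.39 TPM with FA and 36.3 ± 0.187 TPM with PBS and Adam19 at 10.7 ± 5.55 TPM with FA and 7.58 ± 1.45 TPM with PBS.

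Of 6 tested ADAMTS-like genes, which encode matrix proteins without a protease domain, 0 were called and 2 had a log2 difference above 0. Their median difference was -0.0835, or 0.0636 without FA replicate 3. Adamtsl3 was at 1.75, 0.73 and 0.74 TPM with FA and 2.70, 2.20 and 1.64 TPM with PBS, with a difference of -0.64 ± 0.24, an unadjusted p of 0.0364 and an adjusted p of 1.0 by limma. FA replicate 1 lay within the PBS range of this gene. Adamtsl1 was at 2.58 ± 1.67 TPM with FA and 1.47 ± 0.476 TPM with PBS and Adamtsl4 at 39.1 ± 8.54 TPM with FA and 33.6 ± 0.508 TPM with PBS. Of 4 tested genes for astacin proteases, which trim the carboxy end of procollagens, and for enhancers of these proteases, 0 were called. Their median difference was 0.13, or -0.073 without FA replicate 3. Bmp1 was at 81.6 ± 34.3 TPM with FA and 67.7 ± 9.66 TPM with PBS, Pcolce2 at 31.7 ± 8.23 TPM with FA and 27.8 ± 3.99 TPM with PBS and Tll1 at 1.65 ± 0.150 TPM with FA and 1.47 ± 0.209 TPM with PBS.

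The median of the substrates changed sign without FA replicate 3, as did that of every other related list except the ADAM proteases. Of 20 tested matrix substrates 0 were called, 17 had a log2 difference above 0, and 18 were highest in FA replicate 3. The median difference was 0.24, and -0.11 without that tumour. Comp, a cartilage and tendon matrix protein cut by ADAMTS7 and ADAMTS12, was at 1.36 ± 0.0289 TPM with FA and 2.20 ± 0.666 TPM with PBS. All its FA values (1.38, 1.33 and 1.38 TPM) lay below all its PBS values (1.92, 2.96 and 1.72 TPM). The difference of Comp was -0.42 ± 0.18, with an unadjusted p of 0.0603 by limma, and stayed at -0.42 without FA replicate 3. The basement membrane collagen gene Col4a1 was at 419.5 ± 63.0 TPM with FA and 359 ± 28.0 TPM with PBS and the fibrillin gene Fbn2 at 3.47 ± 1.12 TPM with FA and 2.16 ± 0.480 TPM with PBS. Of 17 tested inducers and transcription factors of the AP-1 and ETS families 0 were called, with a median of 0.033, and -0.079 without FA replicate 3. Jun was at 32.4, 31.5 and 26.1 TPM with FA and 35.3, 35.3 and 39.0 TPM with PBS. All FA values of Jun lay below all PBS values, with a difference of -0.28 ± 0.10, an unadjusted p of 0.0322 and an adjusted p of 1.0 by limma, and a difference of -0.19 without FA replicate 3. Another AP-1 gene, Junb, went the other way, at 202 ± 35.5 TPM with FA and 169 ± 7.52 TPM with PBS. All its FA values (178.7, 183.7 and 242.6 TPM) lay above all its PBS values (162.6, 166.1 and 177.0 TPM). The difference of Junb was 0.24 ± 0.12, with an unadjusted p of 0.0895 by limma, and 0.10 without FA replicate 3. Over all genes tested, groups did not overlap for 2.48% in the higher and 2.22% in the lower direction. Ets1 was at 45.7 ± 5.21 TPM with FA and 41.3 ± 3.49 TPM with PBS.

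In GENCODE M21, exons of 13 members overlap an exon of another gene on the opposite strand. Among the members tested these include Timp3, Mmp12, Mmp11, Mmp28, Adamts9, Mmp19 and Adamts7, with Mmp1b as the partner of Mmp12 and Syn3 that of Timp3. The sources used here do not say whether counting used the strand, and the values of these genes could include reads of their partners.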

How the data were processed

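The deposited table holds TPM, computed by the authors, for 55357 genes in 6 tumours. Per the submitters' processing notes the tools were FastQC, STAR, featureCounts and RSEM with no roles or versions; genome build and annotation: not given in the sources used here. Each column carries the description of a single sample, which set its group. Per the labels' protocols, RNA had an integrity number above 8, 4 µg went into each library and 12 PCR cycles were run. Each column sums to about 1000000, so depth is unknown.

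Values were analysed as log2(TPM + 1) with limma 3.58.1 in R 4.3.3, with a variance trend and no covariate, on the 15023 genes averaging 1 TPM or more. The pseudocount makes differences of low genes smaller than the true ones. p-values are two-sided, adjusted by the Benjamini-Hochberg method over all genes tested, with a threshold of 0.05; intervals are at 95%. Errors beside TPM are SD (n = 3), those beside log2 differences standard errors. The fit was tested on simulated data in which each gene had the same spread in every tumour. That setting did not cover an outlying tumour such as FA replicate 3.

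Every member with a mean of at least 1 TPM is named, with each tumour's TPM where the mean is at least 10 TPM, the groups do not overlap, or the highest tumour is at least 3 times the next; of related lists, up to 3 genes with the smallest unadjusted p. The members and lists were chosen with earlier results of these data known. All 46 identifiers matched GENCODE M21 (GRCm38). Upstream windows are from RefSeq (GRCm38.p6), which had 35 windows for 32 of the 46 members. No count test was run on TPM.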

Additional observations from a re-analysis of the deposited data

How the results depend on the processing

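The counts of 0 members higher and 0 lower in FA held in all 7 alternatives (pseudocounts of 0.5 and 0.1, no minimum, a minimum mean of 5 TPM, median-ratio rescaling, array weights, the replicate block) and in the 6 fits that each left out 1 tumour. Over all genes tested, 0 genes were called (192 at an unadjusted p under 0.05, limma), 2 without the minimum and 0 to 1 with a tumour left out, the 1 without FA replicate 3. The sample titles number the tumours and do not say that same-numbered tumours are pairs. Correlations of deviations were -0.208, 0.053 and -0.022 for same-numbered tumours. They ran from -0.192 to 0.245 for differently numbered tumours, and with so few tumours they cannot exclude pairs. With the replicate block 0 members were called and the median difference of the members was 0.133. That median ran from 0.018 to 0.252 with a tumour left out and was 0.024 with array weights, which gave FA replicate 3 a weight of 0.217. The log2 difference of the MMP to TIMP ratio was -0.036, -0.045 without Mmp14, and ran from -0.129 to 0.05 with a tumour left out.

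With array weights the sign turned for Mmp14 (-0.014), Timp1 (-0.292), Mmp13 (-0.188), Adamts2 (-0.189) and Mmp10 (-0.305); the other 173 of 178 values of single members under the 7 alternatives kept their sign. With a tumour left out, the log2 differences whose sign turned ran from -0.025 to 0.185 for Mmp14, -0.373 to 0.532 for Timp1, -0.18 to 0.042 for Timp2, -0.573 to 0.205 for Mmp2, -0.915 to 0.215 for Mmp3, -0.098 to 0.185 for Timp3, -0.797 to 0.001 for Adamts1, -0.191 to 0.774 for Mmp13, -0.01 to 0.237 for Mmp12, -0.247 to 0.044 for Mmp11, -0.033 to 0.116 for Adamts10, -0.069 to 0.255 for Mmp15, -0.32 to 0.506 for Adamts2, -0.297 to 0.382 for Mmp10, -0.188 to 0.092 for Adamts7, -0.035 to 0.087 for Adamts6, -0.089 to 0.523 for Adamts15 and -0.124 to 0.405 for Adamts5. The cause was not tested. Limits set by read depth are unknown for TPM.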
